A study of Caenorhabditis elegans with 12 samples.

Results

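The C-type lectin genes of *Caenorhabditis elegans* were read out in whole-worm RNA of 2 strains with and without knockdown of *rpia-1*, the ribose-5-phosphate isomerase gene of the pentose phosphate pathway. As a sum of TPM, the family in TU3401 EV was at 0.863 times its N2 EV level, and different members made up that sum in the strains. In N2 the sum rested on *clec-87*, *clec-88* and *clec-91*, and in TU3401 on *clec-63* (26.5% of the sum), *clec-87* (20.0%), *clec-50* (8.60%) and a long tail of other members. Most members that could be tested were higher in TU3401, some of them from close to 0 in N2, and *clec-266*, *clec-190* and 10 other members were lower. With the knockdown, no member passed the test in either strain with all libraries weighted equally, and of the alternatives run, those that called members in N2 left out or weighted down 1 library of the knockdown.

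All genes whose name in the files is *clec-* followed by a number were taken, which gave 264 of 46904 genes. All 264 were found by gene ID in the Ensembl release 115 annotation of WBcel235, 239 as protein-coding genes and 25 as pseudogenes. RNA was measured in 12 libraries, 3 for each of 4 groups, and each sample pooled at least 500 worms. N2, the wild type, was fed HT115 bacteria with an empty vector (N2 EV) or with *rpia-1* double-stranded RNA from the start of adulthood (N2 *rpia-1* (RNAi) Day 0), and the labels give day 5 as its time. TU3401 carries uIs69, which joins pCFJ90 (*myo-2p::mCherry*), a marker of pharyngeal muscle, to *unc-119p::sid-1*, in which a neuronal promoter drives the double-stranded RNA importer SID-1. It was fed the empty vector (TU3401 EV) or *rpia-1* double-stranded RNA from the embryo on, for its whole life (TU3401 *rpia-1* (RNAi) WL). The labels give day 0 for both TU3401 groups, whose sample descriptions also hold the mark L4, the name of the last larval stage, while the methods give a harvest at day 5 of adulthood for all samples. Strain and labelled age therefore cannot be told apart in any comparison of N2 with TU3401. Nothing in the labels says that the 3 samples of a group came from separate cultures beyond their independent collection, so the p-values measure the spread between these samples.

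C-type lectins share a protein fold that in many animals binds sugars with the help of calcium. The worm family is large, and many of its proteins are secreted. Many members are made in the intestine and change when worms meet pathogenic bacteria, so they serve as readouts of the immune response, and others are made in the germline, the cuticle-forming tissues or the male. In N2, double-stranded RNA taken up from food spreads through most tissues, and in TU3401 the knockdown was designed to act in neurons.

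The targeted gene was lower in each library labelled as knockdown than in each EV library of its strain. The level of *rpia-1* was 128.3, 115.4 and 120.4 TPM in N2 EV and 27.5, 32.8 and 30.2 TPM in N2 *rpia-1* (RNAi) Day 0. It was 107.4, 107.3 and 115.3 TPM in TU3401 EV and 82.01, 88.46 and 106.5 TPM in whole worms of TU3401 *rpia-1* (RNAi) WL. By limma it fell in N2 (log2 change −1.97, standard error 0.08, adjusted p = 0.00053) and did not pass in TU3401 (log2 change −0.26, standard error 0.12, adjusted p = 1.0). TPM, a length-corrected share of all transcripts of a library, corrects for gene length and for the library total, and read depth is unknown. N2 *rpia-1* (RNAi) Day 0 replicate 1 stood apart, with 22388 genes above 0 against 17777 to 19135 in the other N2 libraries. All samples were labelled as whole worm, but defining markers of several tissues were low in N2. The muscle myosin *unc-54* ranged from 5.73 to 8.23 TPM in the 6 N2 libraries and from 515 to 738 TPM in the 6 TU3401 libraries, and the intestinal actin *act-5* from 22.3 to 32.8 and from 1629 to 1936 TPM. The sum of 48 sperm genes ranged from 6.01 to 19.2 and from 6708 to 10540.2 TPM, and that of 10 oocyte and eggshell genes from 7579 to 8647 and from 3330 to 4832 TPM.

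The family is spread unevenly over the genome. Chromosome V holds 96 of the 264 members, which is 36.4% of them, against 25.0% of all protein-coding genes. Chromosome X holds 3 members, which is 1.14% of them, against 13.7% of protein-coding genes. Members lie side by side more often than alone: 177 of them have another member within 10 kb and form 52 runs, and 87 have none.

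Most of the family was silent or nearly so. In all 12 libraries 12 members were listed at 0, and 78 stayed under 0.1 TPM on average in every group. A mean of at least 1 TPM was reached by 48 members in N2 EV, 48 in N2 *rpia-1* (RNAi) Day 0, 88 in TU3401 EV and 86 in TU3401 *rpia-1* (RNAi) WL. Of the 264 members, 95 reached it in some group, 43 in all 4 groups and 169 in none. Among the 25 pseudogenes 5 reached it, with *clec-237*, the highest of them, at a group mean of 2.54 TPM. In the EV groups 45 members reached 1 TPM in TU3401 and not in N2, and 5 in N2 and not in TU3401. The like shares of all genes were not counted.

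The summed level of all 264 members was 5362, 5529 and 5245 TPM in N2 EV and 5699.7, 5231 and 5406 TPM in N2 *rpia-1* (RNAi) Day 0. It was 4575, 4966 and 4378 TPM in TU3401 EV and 4327, 4807 and 4907 TPM in TU3401 *rpia-1* (RNAi) WL. Each TU3401 EV sum lay below each N2 EV sum, with a ratio of means of 0.863 (exact permutation test of 3 against 3 samples, two-sided p = 0.10, the smallest p that these numbers allow). The same held between the knockdown groups, with a ratio of 0.859 (exact permutation test, p = 0.10). On the FPKM values, in which N2 EV replicate 2 and TU3401 EV replicate 3 are scaled differently, the ratio between the EV groups was 0.960 and the sums overlapped. The knockdown sums overlapped the EV sums in both strains, at 1.01 times the EV mean in N2 (exact permutation test, p = 0.70) and 1.01 times in TU3401 (exact permutation test, p = 1.0).

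**Figure D1:**
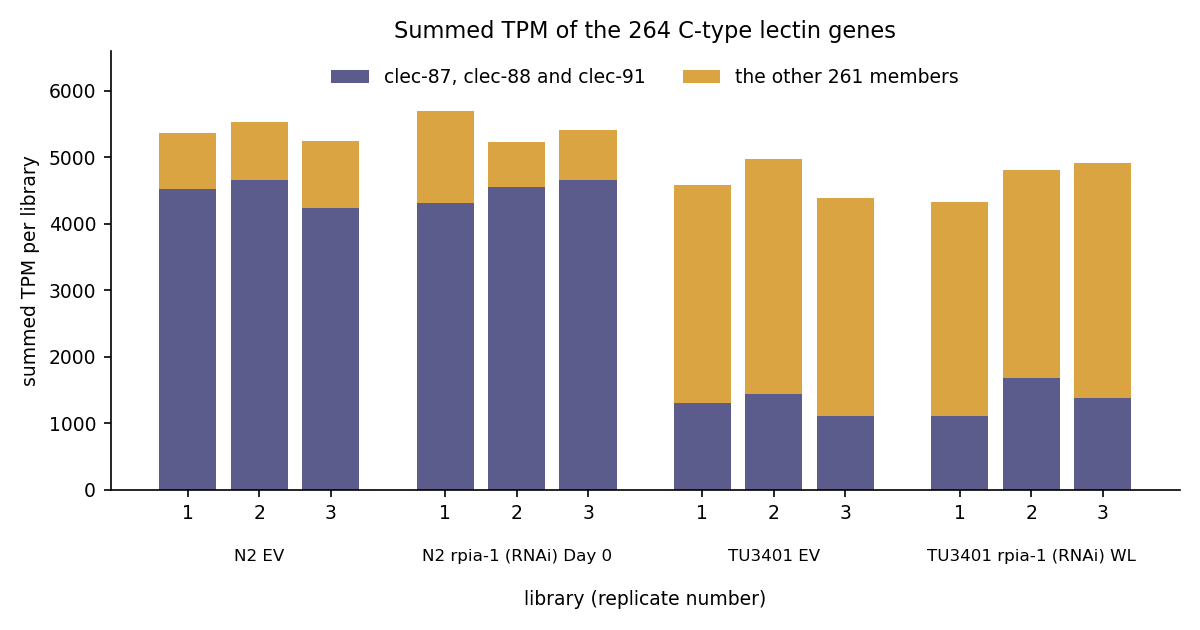
Summed TPM of the 264 C-type lectin genes in each of the 12 libraries (bars, grouped by group, numbered by replicate), split into *clec-87*, *clec-88* and *clec-91* (lower part) and the other 261 members (upper part). The lower part lies between 4238 and 4660 TPM in the N2 libraries and between 1103 and 1682 TPM in the TU3401 libraries.

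The makeup of the sum differed more between the strains than its size. The 3 most abundant members of N2, *clec-87*, *clec-88* and *clec-91*, added up to 4474 ± 216 TPM (SD, n = 3) in N2 EV, 83.2% of the family sum, and to 1278 ± 167 TPM (SD, n = 3) in TU3401 EV, 27.6% of it. The other 261 members added up to 904 ± 91.2 TPM (SD, n = 3) in N2 EV and 3361 ± 145 TPM (SD, n = 3) in TU3401 EV. These 3 members were set apart after their values were seen, so their split is a description without a test.

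The gene *clec-87* (WBGene00007709, chromosome I, 10184462 to 10185520, minus strand, WBcel235) was the most abundant member of N2. It was at 3183, 3229 and 3034 TPM in N2 EV in contrast to 946, 1049 and 792 TPM in TU3401 EV. The knockdown libraries held 2961, 3174 and 3269 TPM in N2, then 798, 1232 and 1000.4 TPM in TU3401. The strains did not overlap, and the EV and knockdown libraries of each strain did. In TU3401 EV it was lower by 1.77 on the log2 scale (standard error 0.10, adjusted p = 2.4e-07 from limma on log2(TPM + 1), Benjamini-Hochberg over all genes tested), and the change between the knockdown groups was −1.65 (standard error 0.15, adjusted p = 2.8e-05 from limma).

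Next came *clec-88* (WBGene00019606, chromosome II, 6365722 to 6367002, plus strand), at 842, 873 and 729.7 TPM in N2 EV and 217, 241 and 189.8 TPM in TU3401 EV. It is followed by *clec-91* (WBGene00014117, chromosome I, 9126140 to 9127101, minus strand), at 501, 557 and 474 TPM in N2 EV and 133, 147 and 121 TPM in TU3401 EV. All 3 genes thus kept their order in both strains at about the same step, since the N2 EV mean was 3.39 times the TU3401 EV mean for *clec-87*, 3.77 times for *clec-88* and 3.82 times for *clec-91*. The oocyte and eggshell markers lay on the same side. All 10 were called lower in TU3401 EV (median log2 change −1.52), beside 43.4% of all genes. By their sum N2 EV was at 2.07 times TU3401 EV, and *perm-2* (1262 and 1089 TPM) and *perm-4* (1173 and 892 TPM) differed least. The part of oocytes in the differences of *clec-87*, *clec-88* and *clec-91* was not tested. In bulk RNA, fewer cells of a type and less RNA per cell cannot be told apart.

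In TU3401 the most abundant member was *clec-63* (WBGene00009394, chromosome II, 12895638 to 12897446, plus strand), expressed in both strains. It was at 167, 165 and 181 TPM in N2 EV and 1234, 1354 and 1107 TPM in TU3401 EV, where it made up 26.5% of the family sum. It stayed at 139, 115.4 and 128 TPM in N2 *rpia-1* (RNAi) Day 0 and 1209, 1179 and 1253 TPM in TU3401 *rpia-1* (RNAi) WL. No N2 library came near a TU3401 library, and the log2 change was 2.84 between the EV groups (standard error 0.08, adjusted p = 5.5e-09 from limma). The third most abundant member there was *clec-50* (WBGene00012253, chromosome V, 19752399 to 19755368, minus strand), at 93.8, 95.5 and 107 TPM in N2 EV and 387, 421 and 388 TPM in TU3401 EV. Its log2 change was 2.00 (standard error 0.07, adjusted p = 2.0e-08 from limma).

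Further members of the TU3401 top ranks rose by various amounts from an already clear N2 level. The gene *clec-83* was at 18.5, 25.1 and 22.4 TPM in N2 EV and 199.6, 210.1 and 208 TPM in TU3401 EV, 9.38 times higher. Its neighbour *clec-84* rose from 11.004, 8.995 and 9.64 TPM to 81.5, 97.2 and 83.4 TPM, 8.84 times. The genes *clec-150* (5.43 times) and *clec-209* (5.19 times) reached 127 ± 5.98 and 102 ± 11.4 TPM (SD, n = 3) in TU3401 EV. At the low end *clec-65* went from 74.3, 72.9 and 75.4 TPM to 101, 105 and 110.0 TPM, only 1.42 times but without overlap (log2 change 0.50, standard error 0.07, adjusted p = 6.7e-05 from limma). The gene *clec-1* was at 30.6, 34.8 and 41.7 TPM in N2 EV and 64.02, 65.04 and 89.6 TPM in TU3401 EV.

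The comparison of the EV groups covered 81 of the 264 members, those that averaged 1 TPM or more over these 6 libraries. Of them 64 were higher and 12 lower in TU3401 EV at an adjusted p under 0.05 from limma, and 5 did not pass (*clec-12*, *clec-97*, *clec-142*, *clec-147* and *clec-264*, named because they are so few). Calls were frequent among all 13348 genes tested, 45.4% of which were higher and 43.4% lower. The median log2 change was 1.52 over the 81 members and 0.06 over all genes. A member that passed the filter only through the strain in which it is high had to differ, and that was so for 38 of the 81, 33 of them through TU3401. Of the 43 members with at least 1 TPM in both groups, 31 were higher and 7 lower in TU3401 EV, with a median of 1.18. Of the 9899 genes of that kind in all, 30.4% were higher and 55.5% lower, with a median of −0.44.

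The knockdown groups share no library with the EV groups. Beside strain and labelled age they differ in the onset and target tissue of the knockdown and in *rpia-1* (means of 30.2 TPM in N2 and 92.3 TPM in TU3401). Between them 59 members were higher and 10 lower in TU3401 among 79 tested. Of all genes tested 39% were higher and 40.9% lower. Among the members of at least 1 TPM in both groups, 28 of 43 were higher and 7 lower, against 24.9% and 50.9% of all such genes. Of 78 members tested in both comparisons, 58 were higher in both, 10 lower in both, 5 passed between the EV groups alone and 5 in neither, and no member passed in opposite directions.

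The scale of the libraries bears on these counts. With libraries rescaled by a median ratio the median of all genes between the EV groups moved from 0.06 to 0.67 and that of the members from 1.52 to 1.96, with 67 members higher and 10 lower. Of all 13348 genes 7948 were then higher and 3306 lower. With quantile normalization the medians were −0.25 and 0.49, with 45 members higher and 18 lower, beside 4100 and 6546 of all 13348 genes. Between the knockdown groups 41 members were then higher and 17 lower of 79, beside 3679 and 6010 of all 13412 genes. Under these scalings 13 of the 64 rises, all by less than 1.45 on the log2 scale, turned negative with quantile normalization. Of these, *clec-223* (from 0.72 to −0.70, adjusted p = 0.0066 from limma) and *clec-178* (from 1.04 to −0.41, adjusted p = 0.019 from limma) then passed as falls. In turn 1 fall, that of *clec-90* (from −0.63 to 0.03), turned positive with the median ratio. The 20 members named for the largest rises and falls between the EV groups kept direction and call under every alternative in which they were tested. Between the knockdown groups 7 of the 59 rises turned negative with quantile normalization.

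**Figure D2:**
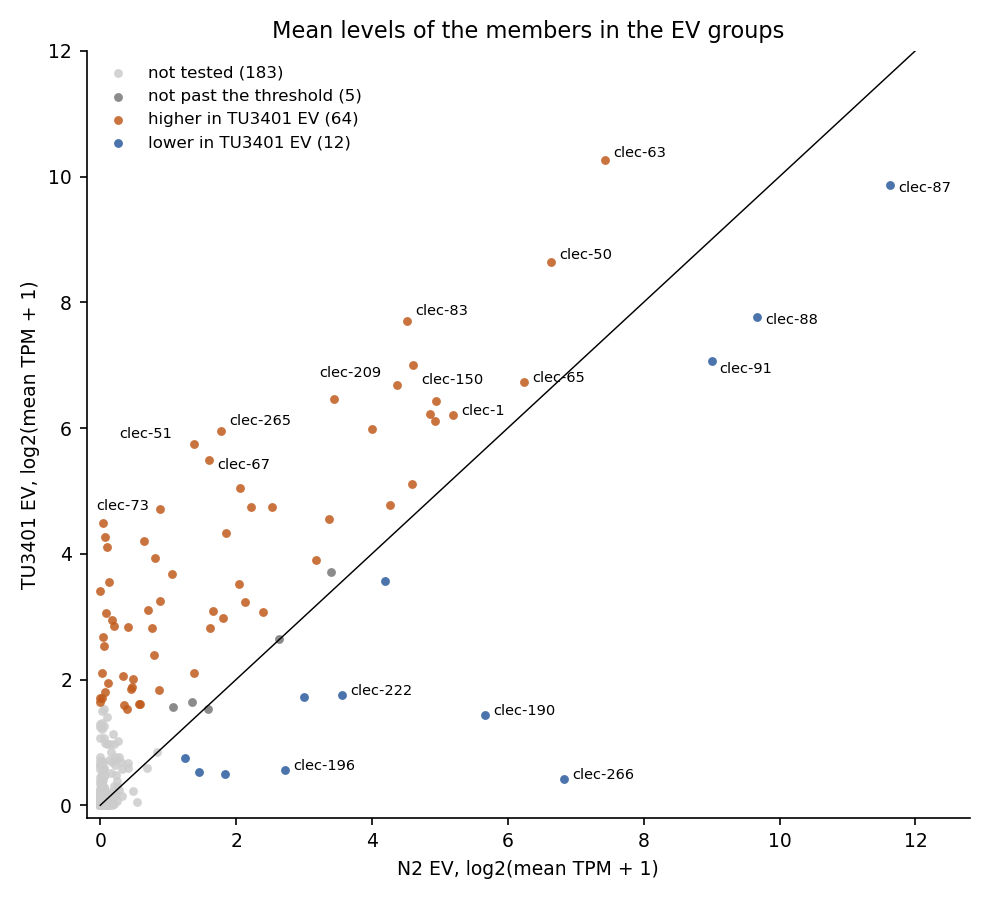
Mean level of each of the 264 members in N2 EV (horizontal axis) and TU3401 EV (vertical axis), both as log2(mean TPM + 1), with points coloured by the limma result and the line marking equal levels. The 64 members higher in TU3401 EV lie above the line, many of them near 0 in N2, and *clec-266* and *clec-190* lie far below it.

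Among the largest rises, some members were expressed at low but measurable levels in N2. The gene *clec-51* (WBGene00015050) was at 1.71, 1.23 and 1.87 TPM in N2 EV and 46.7, 51.1 and 60.4 TPM in TU3401 EV (log2 change 4.37, standard error 0.14, adjusted p = 1.0e-08 from limma). On chromosome X, *clec-265* (WBGene00019738) went from 2.54, 3.28 and 1.43 TPM to 58.6, 63.5 and 59.9 TPM (log2 change 4.21, standard error 0.19). The gene *clec-67*, an intestinal gene whose level falls when the p38 kinase PMK-1 is lost, went from 1.40, 1.97 and 2.72 TPM to 51.03, 57.9 and 23.6 TPM, with TU3401 EV replicate 3 well under the other two (log2 change 3.83, standard error 0.31, adjusted p = 2.2e-06 from limma). The genes *clec-10* (0.750, 0.930 and 0.855 TPM in N2 EV against 23.7, 23.3 and 28.8 TPM) and *clec-4* (0.5001, 0.773 and 0.416 TPM against 16.6, 16.7 and 19.0 TPM) were alike in this.

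Other members were close to 0 in every N2 library. The gene *clec-73* (WBGene00021579, chromosome IV, 3954030 to 3956195, minus strand) was at 0.0509, 0.0317 and 0 TPM in N2 EV and at 19.6, 21.3 and 23.6 TPM in TU3401 EV. The knockdown libraries repeated this, with 0.0594, 0 and 0 TPM in N2 and 24.1, 15.1 and 20.4 TPM in TU3401. Its log2 change between the EV groups, 4.45, was the largest rise in the family (standard error 0.13, adjusted p = 5.8e-09 from limma), and on this scale it measures the TU3401 level more than a ratio. On chromosome II, *clec-123* was at 0.0690, 0.0924 and 0 TPM in N2 EV and 17.6, 17.2 and 20.0 TPM in TU3401 EV. The gene *clec-117* was listed at 0 in 5 of the 6 N2 libraries and at 5.83 to 11.2 TPM in the TU3401 libraries.

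In all, 14 members stayed under 0.2 TPM in every N2 library and reached 1 TPM in every TU3401 library, a rule chosen after the values were seen and so given without a test. The share of all genes that meet this rule was not counted. Genes of any kind averaging 1 TPM were more frequent in the TU3401 libraries (13921) than in the N2 libraries (10626). By TU3401 EV level the 14 members are *clec-73*, *clec-123*, *clec-79*, *clec-170*, *clec-117*, *clec-151*, *clec-119*, *clec-153*, *clec-26*, *clec-175*, *clec-72*, *clec-236*, *clec-237* and *clec-152*, the last 3 annotated as pseudogenes. Their sum was 0.671, 0.636 and 0.593 TPM in N2 EV and 107.4, 104.8 and 126.3 TPM in TU3401 EV. It was 0.849, 0.245 and 0.594 TPM in N2 *rpia-1* (RNAi) Day 0 and 122, 79.4 and 104.2 TPM in TU3401 *rpia-1* (RNAi) WL. By list sum, sperm, muscle, intestine and cuticle markers were higher in TU3401 too. Mean sums per library in N2 EV and TU3401 EV were 11.3 and 8522 TPM for 48 sperm genes and 125 and 5139 TPM for 7 body wall muscle genes. They were 236 and 6159 TPM for 12 intestine genes and 39.9 and 427 TPM for 11 hypodermis and cuticle genes. In the intestine list *asp-1* (89.6 and 3388 TPM) and *act-5* (31.3 and 1876 TPM) made up most of the TU3401 EV sum. Of its genes 11 were called higher and 1, *ftn-1* (30.3 and 1.65 TPM), lower, beside 45.4% and 43.4% of all genes. The part of these tissues in the members' levels was not tested.

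The falls were fewer, and the largest of them exceeded the largest rise on the log2 scale. The gene *clec-266* (WBGene00016088, chromosome X, 6617393 to 6622915, minus strand) was at 82.96, 98.3 and 158 TPM in N2 EV and at 0.188, 0.0839 and 0.722 TPM in TU3401 EV. In N2 it was the fifth member by level, and in TU3401 it ranked 127 of 264. The log2 change was −6.40 (standard error 0.25, adjusted p = 2.9e-08 from limma). The gene *clec-190* (WBGene00010953, chromosome IV, 15124931 to 15126121, minus strand) was at 44.2, 49.5 and 54.8 TPM in N2 EV and 1.93, 1.45 and 1.71 TPM in TU3401 EV, so N2 EV was 29.1 times higher (log2 change −4.22, standard error 0.13, adjusted p = 6.1e-09 from limma).

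Apart from *clec-87*, *clec-88* and *clec-91*, described above, the other falls were at lower levels. The gene *clec-196* was at 4.399, 4.31 and 8.05 TPM in N2 EV and 0.886, 0 and 0.537 TPM in TU3401 EV (log2 change −2.16, standard error 0.28). The gene *clec-222* was at 10.4, 11.1 and 10.8 TPM against 2.39, 2.62 and 2.12 TPM (log2 change −1.80, standard error 0.13). Neighbours on chromosome II, *clec-146* and *clec-145*, were at 6.99 ± 0.987 and 1.74 ± 0.214 TPM in N2 EV and at 2.28 ± 0.540 and 0.449 ± 0.172 TPM in TU3401 EV (SD, n = 3). The remaining falls were *clec-55* (log2 change −1.35), *clec-90* (−0.63) and *clec-104* (−0.49, adjusted p = 0.0095 from limma), with *clec-104* named so that all 12 are given. Between the knockdown groups *clec-145* was not tested and *clec-104* did not pass (log2 change −0.23, adjusted p = 0.38 from limma).

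**Figure D3:**
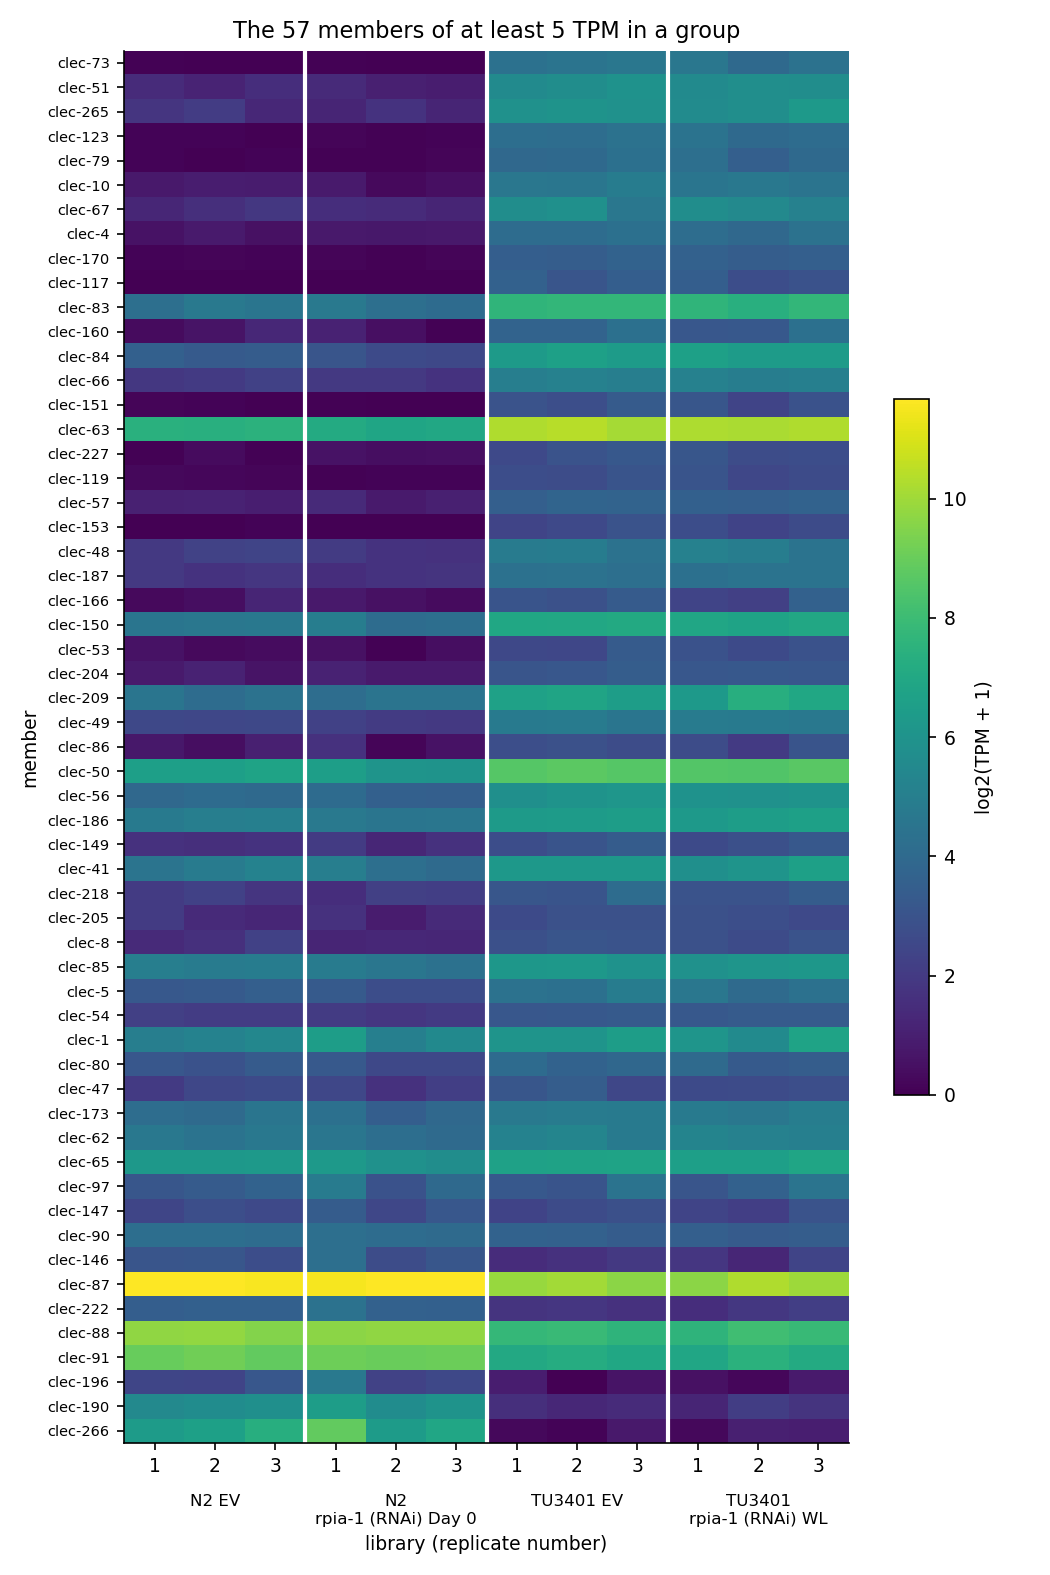
Level, as log2(TPM + 1), of the 57 members that averaged 5 TPM or more in some group (rows, sorted by their log2 change between the EV groups) in the 12 libraries (columns, by group and replicate number). The upper rows are dark in the 6 N2 libraries and lighter in the 6 TU3401 libraries, the lowest rows show the reverse, and within a strain the EV and knockdown columns look alike.

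Neighbouring members did not always move alike. The largest run, on chromosome V from 16839121 to 16869840, holds 15 members and added up to 0.474 TPM in N2 EV and 13.9 TPM in TU3401 EV. Its highest member was *clec-26*, at 5.11, 4.82 and 4.45 TPM in TU3401 EV, and the other 14 members were at 1.95 TPM or less in each of those libraries. The run of 13 members on chromosome IV from 3922165 to 3975721 went from 2.97 to 88.1 TPM, of which *clec-67*, *clec-73* and *clec-79* made up nearly all, and *clec-68*, *clec-75*, *clec-77* and *clec-174* stayed under 0.42 TPM in every library. The run of 8 members on chromosome II from 3568117 to 3581475, *clec-127* to *clec-134*, was silent, with 7 of its 96 values above 0 and none above 0.213 TPM.

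**Figure D4:**
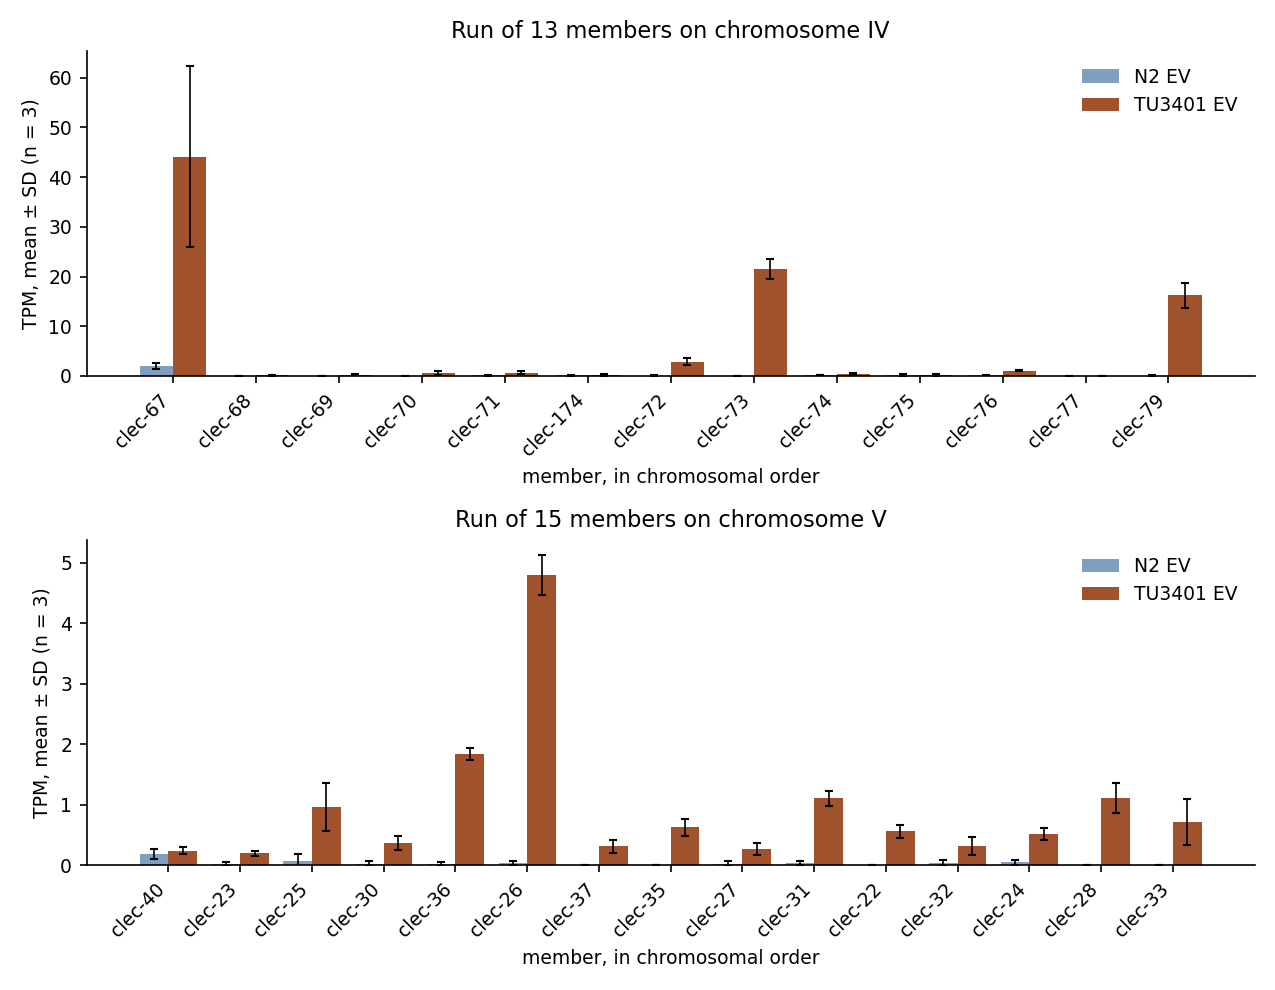
Level (TPM, mean ± SD, n = 3 libraries) of each member of the runs of 13 members on chromosome IV and 15 members on chromosome V, in chromosomal order, in N2 EV and TU3401 EV (bars). In the upper panel *clec-67*, *clec-73* and *clec-79* stand out of a row of low members, and in the lower panel *clec-26* does.

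Shorter runs held the abundant members. The 5 members on chromosome II from 12893062 to 12906644, *clec-62* to *clec-66*, added up to 271 TPM in N2 EV and 1403 TPM in TU3401 EV. Within that run *clec-63* was 7.21 times higher in TU3401 EV and *clec-66* 10.2 times, while *clec-65* was 1.42 times higher. The 5 members on chromosome IV from 2823746 to 2855456, which include *clec-83*, *clec-84* and *clec-85*, went from 69.6 to 376 TPM. In the run of 5 on chromosome V from 14469231 to 14482317 the sum went from 22.2 to 89.6 TPM while *clec-55* in it fell, from 2.53, 2.46 and 2.76 TPM to 0.517, 0.335 and 0.378 TPM. Of the 11 runs of at least 5 members, 10 had a higher sum in TU3401 EV, and the silent run was at 0 in both EV groups.

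In N2, no member passed the test with the knockdown of *rpia-1*. The most abundant, *clec-87*, *clec-88* and *clec-91*, had log2 changes of −0.01, 0.05 and 0.05, with standard errors of 0.06, 0.07 and 0.06. Of 48 members tested by limma, 0 passed and an unadjusted p under 0.05 was found for 6, all lower with the knockdown. Of all 10626 genes, 1 fell, which is 0.00941% and is *rpia-1* itself, and 0% rose (176 genes at an unadjusted p under 0.05).

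The members with the smallest p values were abundant TU3401 members. The gene *clec-63* was at 167, 165 and 181 TPM with EV and 139, 115.4 and 128 TPM with the knockdown, so that all 3 knockdown libraries lay below all EV libraries (log2 change −0.42, standard error 0.08, adjusted p = 1.0 from limma). The gene *clec-84* was at 11.004, 8.995 and 9.64 TPM with EV and 7.47, 5.13 and 4.86 TPM with the knockdown (log2 change −0.69, standard error 0.19, adjusted p = 1.0 from limma). The gene *clec-186* went from 27.04, 30.7 and 31.6 TPM to 25.6, 22.2 and 22.6 TPM, and *clec-50* from 93.8, 95.5 and 107 TPM to 92.3, 65.8 and 62.7 TPM. The gene *clec-49*, needed for resistance to *Serratia marcescens*, went from 4.81, 4.64 and 4.77 TPM to 3.80, 3.11 and 2.83 TPM. Counting over all members tested, 7 of 48 had knockdown libraries all below the EV libraries, which is 14.6%, and none had them all above, while of all genes tested 3.15% lay below and 1.96% above in this way.

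Over the 48 members the median log2 change was −0.17, with 33 lower and 15 higher, beside −0.00 over all genes tested. The median came from 2 of the 3 knockdown libraries. Against the N2 EV mean, 39 of 48 members were lower in replicate 2 (median −0.29) and 33 in replicate 3 (median −0.19), and 20 were lower and 28 higher in replicate 1 (median 0.05). Without replicate 1, 2 of 47 members passed as lower in limma, *clec-50* (log2 change −0.61, standard error 0.07, adjusted p = 0.033) and *clec-63* (−0.48, standard error 0.06, adjusted p = 0.045), and of all genes 0.321% did. With sample weights estimated over all genes together, 13 members and 2.39% of all genes passed as lower, but that estimate did not converge and gave replicate 3 of the knockdown a weight of 29.7, against 0.0974 for replicate 1 and 0.557 for replicate 2, so these calls lean on 1 library. With weights estimated gene by gene, which converged at 0.137, 1.17 and 3.60 for these libraries, 3 members passed as lower, *clec-50*, *clec-63* and *clec-84* (adjusted p = 0.028, 0.032 and 0.036 from limma), beside 0.471% of all genes. Intestine markers lay on the same side, with a sum of 233, 243 and 233 TPM in N2 EV and 224, 173 and 169.5 TPM with the knockdown. Of them 11 of 12 genes were lower (median log2 change −0.26, 0 passing). The 6 vitellogenins, yolk protein genes of the intestine, were all lower too (median −0.49, 0 passing). Their sum was 3301, 2677 and 3039 TPM in N2 EV and 1933, 2156 and 2150 TPM with the knockdown. Unlike the members, the vitellogenins were thus lowest by sum in replicate 1. The part of intestinal RNA in the members' values was not tested.

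Replicate 1 of N2 *rpia-1* (RNAi) Day 0 was high for another set of members. There *clec-266* was at 464 TPM against 83.5 and 118 TPM in the other knockdown libraries and 82.96, 98.3 and 158 TPM in N2 EV. The gene *clec-196* was at 25.1 TPM there, against 3.91 and 4.80 TPM and an N2 EV mean of 5.59 TPM. The genes *clec-1* (88.4 against 32.1 and 44.9 TPM), *clec-190* (88.1 against 50.97 and 63.7 TPM), *clec-146* (17.97 against 5.59 and 7.75 TPM) and *clec-97* (28.2 against 6.73 and 15.1 TPM) leaned the same way, and the last of these was picked after its values were seen. Without this library the knockdown mean fell from 221.6 to 100.6 TPM for *clec-266* and from 11.3 to 4.35 TPM for *clec-196*, from above the N2 EV mean to below it. The cuticle collagen *sqt-3* was also high there, at 136 TPM against 13.4 to 47.7 TPM in the other N2 libraries. The hypodermis and cuticle markers *dpy-7* (9.40 against 0.564 to 6.07 TPM) and *ptr-4* (7.36 against 0.745 to 3.50 TPM) were high there too. So were *mlt-10* (7.07 against 2.22 to 3.90 TPM) and *elt-3* (5.34 against 1.85 to 3.72 TPM). The other collagens of that list, *dpy-13*, *rol-6*, *sqt-1*, *bli-1*, *bli-2* and *lon-3*, were under 1 TPM in every N2 library, too low to be read here. Among the embryo markers, *elt-1*, also an epidermal regulator, was at 43.9 against 16.8 to 24.9 TPM. High too were *tbx-37* (4.01 against 0.673 to 1.30 TPM), *tbx-38* (5.78 against 0.962 to 2.13 TPM) and *ceh-27* (2.125 against 0.061 to 0.690 TPM). In contrast *end-3* was low (0.803 against 1.05 to 1.78 TPM). Within the range of the other N2 libraries lay *pes-1* (7.21 against 5.41 to 8.99 TPM) and *lin-26* (144 against 141 to 161 TPM), and *pha-4*, *hlh-1* and *end-1* were under 1 TPM there. The embryo list summed to 210 TPM there against 173 to 201 TPM, and the neuron list to 495 TPM against 406 to 439 TPM. The part of these tissues in the members' values was not tested.

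**Figure D5:**
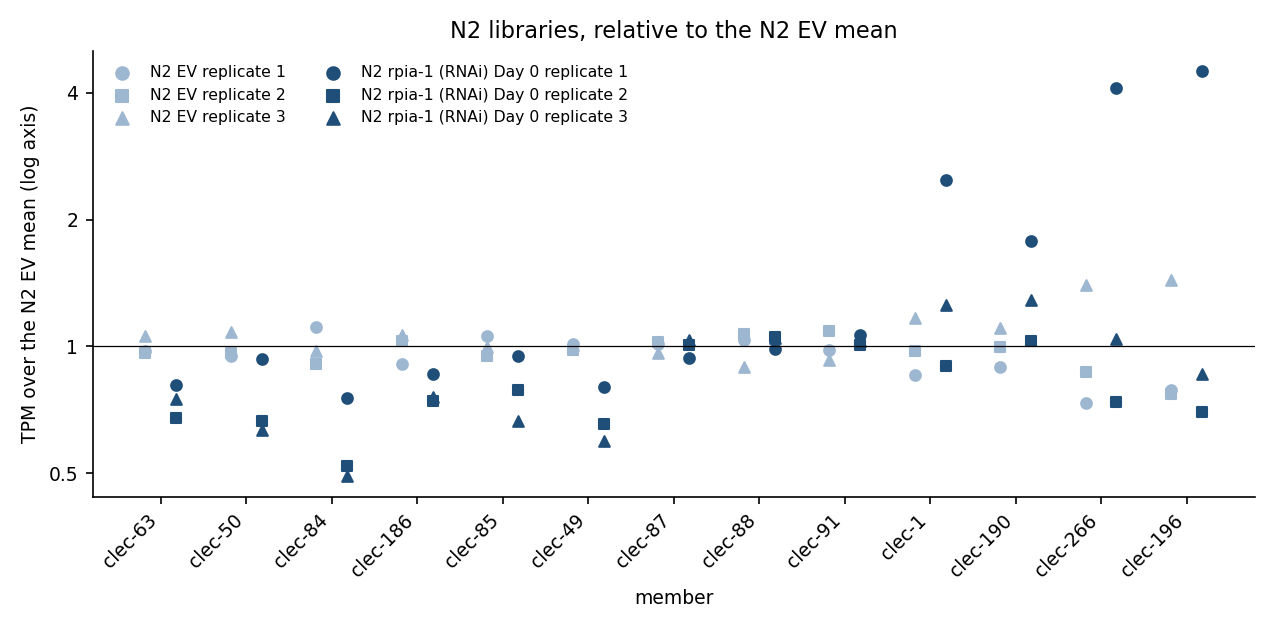
TPM of 13 members in each N2 library, divided by the N2 EV mean of that member (log axis), with EV libraries pale, knockdown libraries dark and the replicate number given by the marker. The knockdown points of *clec-63*, *clec-84* and *clec-49* lie below all EV points, those of *clec-87* to *clec-91* lie at 1, and replicate 1 is far above the rest for *clec-266* and *clec-196*.

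In TU3401, the whole-life knockdown gave no call. Of 86 members tested 0 passed by limma and 1 had an unadjusted p under 0.05. Of all 13921 genes 0% rose and 0% fell (164 at an unadjusted p under 0.05). No member had knockdown libraries all above or all below the EV libraries, which 1.36% and 2.03% of all genes had. The median log2 change of the members was −0.06, with 58 lower and 28 higher. It rested on replicate 2 of the knockdown, in which 68 of 86 members were below the EV mean, against 49 in replicate 1 and 38 in replicate 3, and without that library it was 0.01. The smallest p was that of *clec-26*, at 5.11, 4.82 and 4.45 TPM with EV and 1.95, 2.07 and 4.73 TPM with the knockdown (log2 change −0.63, standard error 0.27, adjusted p = 1.0 from limma). Its neighbour *clec-36* was split in the same way, at 1.95, 1.80 and 1.77 TPM with EV and 0.674, 0.933 and 1.99 TPM with the knockdown, so in both genes replicate 3 of the knockdown was at the EV level.

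The difference between the knockdown changes of the strains was tested over all 12 libraries. By limma 0 of 79 members passed. For 5 the unadjusted p was under 0.05. Among all 13383 genes 0.00747% passed as higher, which is *rpia-1* alone, and 0% as lower. The 5 members were *clec-84* (difference in log2 change 0.71, standard error 0.20), *clec-63* (0.41, standard error 0.12), *clec-49* (0.50, standard error 0.19), *clec-186* (0.37, standard error 0.15) and *clec-50* (0.38, standard error 0.17), each with an adjusted p of 1.0 from limma. They are the members with the smallest p in the N2 comparison, with which this test shares libraries.

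The members best known from work on worm immunity, 20 genes listed from general knowledge, were mostly higher in TU3401 where they could be tested. Of the 20, 7 stayed under 1 TPM on average in every group, among them *clec-60*, which is induced by Gram-positive pathogens, *clec-39* and *clec-17*. Between the EV groups 13 were tested and all 13 were called higher in TU3401 (median log2 change 1.52), beside 45.4% of all genes, and between the knockdown groups 12 of 13, beside 39%. The direction of 4 of them, *clec-4*, *clec-7*, *clec-52* and *clec-86*, was fixed by the filter, which they passed only through TU3401. The 9 others, with at least 1 TPM in both groups, were all called higher between the EV groups (median 1.48) and 8 of them between the knockdown groups. With quantile normalization *clec-47* (from 0.65 to −0.52) and *clec-52* (from 1.39 to −0.08) turned negative between the EV groups, and *clec-52* (from 1.05 to −0.27) and *clec-7* (from 1.19 to −0.17) between the knockdown groups. Examples are *clec-85*, from 31.1, 27.9 and 29.3 TPM in N2 EV to 70.4, 73.8 and 60.2 TPM in TU3401 EV and *clec-41*, from 21.2, 27.7 and 34.8 TPM to 74.4, 73.5 and 74.3 TPM. The smallest called changes were those of *clec-65*, given above, and *clec-47*, whose groups overlapped at 2.95, 4.60 and 5.19 TPM and 7.77, 9.89 and 4.57 TPM (log2 change 0.65, adjusted p = 0.039 from limma). With the N2 knockdown all 9 tested were lower, 0 of them past the threshold (median −0.32), and with the TU3401 knockdown 10 of 13 were lower and 0 passed (median −0.03).

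Other parts of the immune response gave a frame for these values. A list of 14 immune regulators held genes of the PMK-1 p38 pathway, such as *pmk-1* and *sek-1*, and others outside it, such as *dbl-1*, *sma-3* and *daf-16*. Their sum was 706 ± 35.4 TPM in N2 EV and 718 ± 50.2 TPM in TU3401 EV (SD, n = 3). In limma 6 of the 14 were higher and 6 lower, beside 45.4% and 43.4% of all genes. A list of 96 genes held lysozymes, saposin-like proteins and other effectors, and all genes named *dod* (downstream of DAF-16) or *irg* (infection response). They added up to 3226 ± 369 TPM in N2 EV and 6990 ± 748 TPM in TU3401 EV (SD, n = 3). Of 61 tested, 40 were higher and 15 lower (median log2 change 1.43), against 45.4% and 43.4% of all genes and a median of 0.06. With the N2 knockdown 39 of 55 genes of this list were lower and 16 higher (median −0.21), and with the TU3401 knockdown 40 of 58 were lower and 18 higher (median −0.09), 0 of them past the threshold in either strain.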

How the data were processed

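Stranded mRNA libraries of whole worms were sequenced, and the submitters' processing notes name FastQC 0.11.9, MultiQC 1.12, Trimmomatic 0.36, HISAT2 2.2.1 and featureCounts 1.6.2 without their roles or the genome build. The authors deposited FPKM values and a linear signal that they call TPM, which equals FPKM times 1 factor per library (1.39 in N2 EV replicate 2, 1.21 in TU3401 EV replicate 3, 1.70 to 1.93 in the others). The sums of this signal, as deposited, were 1025899 to 1036143 per library, slightly over the defined total of TPM, and the cause is not given in the sources used here. Read counts were not used here, so no count test was run and depth in reads is unknown. From the FPKM step of 21-nucleotide RNA genes the relative depth was 0.785 to 1.20.

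The fits used limma 3.58.1 in R 4.3.3 (empirical Bayes, mean-variance trend) on log2(TPM + 1), which understates changes of low genes, over genes averaging 1 TPM or more across the libraries of the fit, with Benjamini-Hochberg adjustment over all genes and a threshold of 0.05. The fits were tested on data simulated with the spread of each gene, in which some genes were changed by a known fold. Only genes averaging about 5 TPM or more were changed, which leaves out many of the members tested. Each gene varied independently, so a library that stands apart in many genes at once was not simulated. Planting many true changes also eases the adjusted threshold. The shares called are therefore no measure of power for low members or with such a library. For the N2 knockdown 68%, 82% and 94% of genes changed 1.5, 2 and 4-fold were called. For the TU3401 knockdown these were 14%, 57% and 94%, so small changes there would mostly be missed. Sums were tested by exact permutation with numpy 2.4.6 under Python 3.11.15 (pandas 2.3.3), and figures drawn with matplotlib 3.10.9. Positions and gene types came from Ensembl release 115 (WBcel235) by gene ID, which held 46817 of the 46904 genes.

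Members, gene lists and rules were chosen with earlier results of these data known. Named were the 10 most abundant members of each group, the 10 largest called rises and falls between strains, the 5 smallest p of each knockdown test, 20 members from immunity work, the 3 largest runs, and members over 3 times higher in 1 library than in the others of its group at a group mean of at least 5 TPM, and *rpia-1*. Members named beyond this rule were picked after their values were seen. These are the 5 that did not pass between the EV groups, *clec-104*, *clec-62*, *clec-97*, *clec-178*, *clec-223* and those of the 14 low in N2. Sequence likeness between members was not examined, and reads of near-identical members may have been split or dropped in counting. The alternatives were FPKM, pseudocounts of 0.1 and 5, no filter or a mean of 5 TPM, 2 scalings, no trend, sample weights (also gene by gene, added after seeing the data), all 12 libraries in 1 fit, a replicate block and leaving out each library.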

Additional observations from a re-analysis of the deposited data

How the results depend on the processing

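Between the strains the counts of called members moved mostly with the filter, and the directions that turned with the scaling are given with the results. Without a filter 110 members were higher between the EV groups and 95 between the knockdown groups, and with a mean of at least 5 TPM these were 34 and 32, with 7 lower between the EV groups. Quantile normalization gave 17 lower between the knockdown groups. Leaving out each library in turn gave 58 to 68 higher and 10 to 12 lower between the EV groups, and 51 to 66 higher and 9 to 10 lower between the knockdown groups.

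For the N2 knockdown the count of lower members ranged from 0 to 2 when each library was left out, with the 2 found only without N2 *rpia-1* (RNAi) Day 0 replicate 1, and was 13 with sample weights, whose estimate did not converge for this comparison, between the knockdown groups or for the difference between the strains, and 3 with weights estimated gene by gene, an alternative chosen after seeing the data. It was 0 under each of the other alternatives. No member passed for the TU3401 knockdown or for the difference between the strains under any alternative. The value of *clec-172* in TU3401 turned from −0.38 to 0.028 (log2) with sample weights over all genes together. The cause was not tested.

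The ratio of summed levels on FPKM was 0.912 for the N2 knockdown, 0.891 for the TU3401 knockdown, 0.960 between the EV groups and 0.938 between the knockdown groups, where the differing factors between FPKM and TPM per library enter. Whether the replicate numbers pair the samples is not stated, though the sample descriptions give the EV and knockdown samples of a strain the same numbers. In TU3401, deviations of same-numbered libraries correlated at 0.06 to 0.46 and those of differently numbered ones at −0.51 to 0.24. In N2 these were −0.40 to 0.03 and −0.36 to 0.43. Same-numbered libraries correlated at −0.11 to 0.09 between the EV groups and −0.26 to 0.38 between the knockdown groups. A shared batch was not tested beyond a replicate block. With the replicate block 0 members passed in either knockdown comparison or in the difference between them, 65 were higher and 12 lower between the EV groups, and 59 higher and 10 lower between the knockdown groups.

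With 3 libraries a group and an unknown depth in reads, no counting error is given for the low members.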
